A study of Mus musculus with 8 samples.

Results

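The 38 genes described here take up, bind, activate and oxidise fatty acids in the liver, hydrolyse their CoA esters, form ketone bodies or rise in the liver on fasting, and most of them are known targets of the nuclear receptor PPAR alpha. They were chosen by name out of 49671 genes in the count table, with earlier results of these data known. All 38 were among the 13117 genes that had at least 1 CPM (counts of a gene relative to those of all tested genes in a library, with TMM scaling) in at least 2 libraries. By role, 11 belong to the peroxisome, 14 to the carnitine shuttle, beta-oxidation and ketone body formation in mitochondria, 4 are acyl-CoA thioesterases, 5 handle uptake, binding, activation and droplets, and 4 are known for their rise in fasting. RNA was sequenced from whole livers of post-weaning mice, labelled C57BL/6 and given as C57BL/6N in the paper, with 2 libraries for each sex of the WT and of the NT-KO genotype. NT-KO mice are homozygous for a deletion made with CRISPR/Cas9 at the start codon of Lbr, the gene of an inner nuclear membrane protein that carries N-terminal chromatin-binding domains and a sterol reductase domain. The line goes back to a single male founder crossed with C57BL/6N females, and neither the time of day nor the feeding state at which livers were taken is stated in the sources used here. The labels number the samples but do not tie them to separate animals, so that p-values measure only the spread between these samples.

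PPAR alpha is bound and activated by fatty acids and their derivatives, and pairs with the receptor RXR on DNA to switch on genes for fatty acid uptake and oxidation. In the liver this programme is active in fasting, when fatty acids released from fat tissue are burnt in peroxisomes and mitochondria and turned into ketone bodies for other organs. Peroxisomes shorten very long chains and produce hydrogen peroxide, mitochondria take the chains in as carnitine esters and oxidise them to acetyl-CoA, and thioesterases release free acids from their CoA esters. Many liver genes of lipid and drug metabolism are also expressed at different levels in male and female mice, under the control of the sex-specific pattern of growth hormone release.

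The libraries held 45020377 to 64396291 counts, at which 3 counts are worth 0.0477 to 0.0767 CPM, a limit for a gene without counts that covers counting error only. Counts differed by far more than sampling noise between the libraries of any group (chi-square of 112 to 278 for each degree of freedom), so none was treated as a repeat of another. With 2 libraries against 2, the smallest two-sided p of an exact permutation test is 0.333, and p-values therefore come from edgeR, which shares the spread between replicates across genes. Lbr read 7.08 to 8.66 CPM in the 4 WT libraries and 13.8 to 15.2 CPM in the 4 NT-KO libraries. These counts cover the whole gene and do not show the deleted part by itself. The 6 hepatocyte markers summed to 81068 to 119810 CPM, and 5 of 6 adipocyte markers (Adipoq, Lep, Cfd, Retn and Plin1) were below the filter on low counts. In whole liver, fewer cells of a type and less RNA per cell cannot be told apart.

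The members spanned a wide range of levels. Per kilobase of exon (RPKM), Fabp1, the cytosolic fatty acid binding protein of hepatocytes, was the most abundant at a mean of 9656 RPKM over 8 libraries. Acaa2, the mitochondrial thiolase, followed at 735 RPKM and Acaa1b, a peroxisomal thiolase, at 439 RPKM. The lowest were Pdk4 at 1.12 RPKM and Fgf21 at 0.904 RPKM, and the 4 thioesterases lay between 2.24 RPKM (Acot2) and 35.6 RPKM (Acot3). Acaa2 and Hsd17b4 differed by only 1.21-fold and 1.2-fold between their lowest and highest library, against 251-fold for Acot3, 55.2-fold for Abcd2 and 19.3-fold for Vnn1. The heat map of all members shows where this variation lies: the deepest colours separate male from female columns, and in the rows of Abcd2, Acot2 and Acot4 the male NT-KO columns are paler than the male WT columns, as is that of male NT-KO replicate 2 in the row of Acot3.

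**Figure D1:**
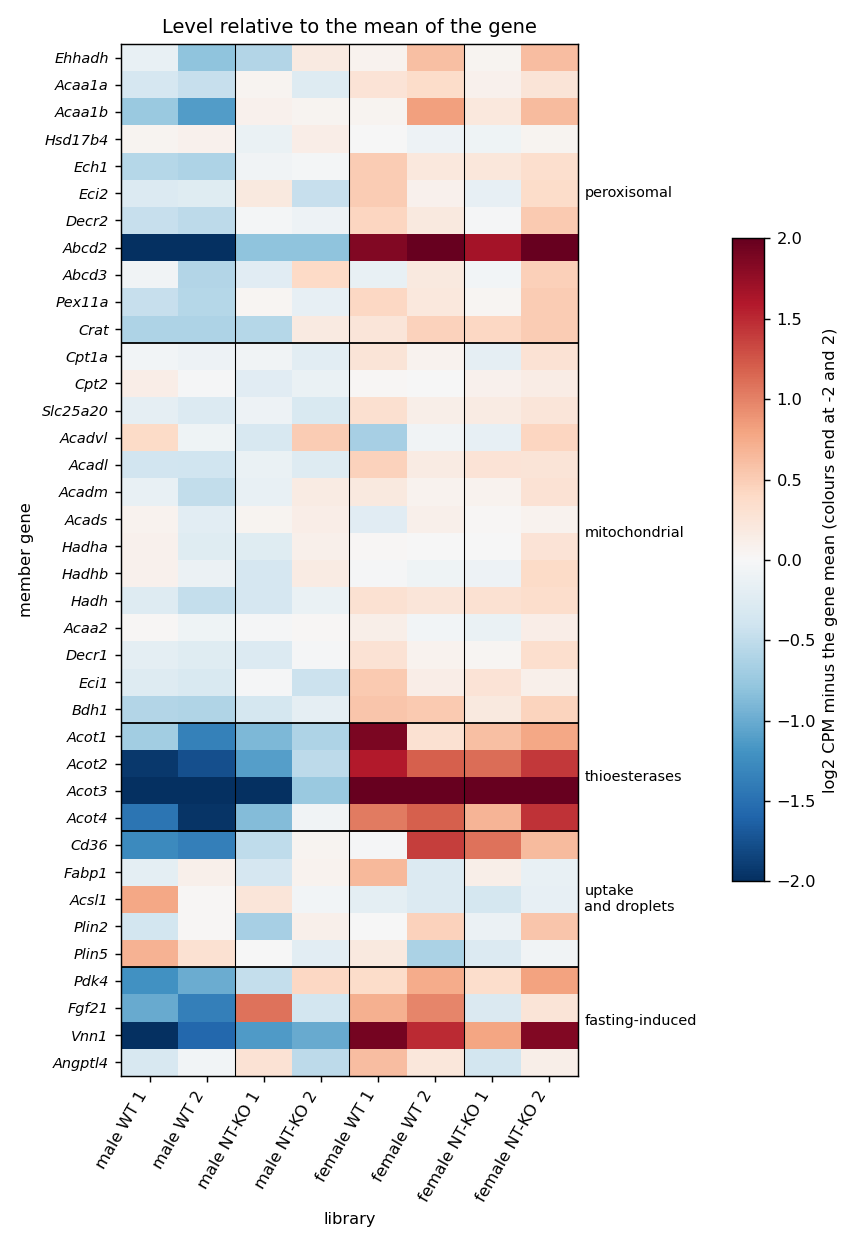
Each row is a member gene, grouped by role, and each column a library; colour gives log2 CPM minus the mean of the gene over the 8 libraries, with colours ending at -2 and 2. Abcd2, Vnn1 and the thioesterases are blue in the male and red in the female columns, and most mitochondrial genes stay pale throughout.

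Livers of WT and NT-KO mice were sequenced as part of a study of Lbr and X chromosome inactivation. In male NT-KO vs WT 29 members were higher (76.3%, against 51.6% of all tested genes) and 9 lower, and the log2 fold change had a median of 0.22 over the members against 0.01 over all tested genes. By role, the median was 1.18 for the thioesterases, 1.01 for the fasting-induced genes and 0.43 for the peroxisomal genes, but 0.04 for the mitochondrial genes and -0.09 for the genes of uptake and droplets, where leaving out male WT replicate 2 gave 0.07 and leaving out male NT-KO replicate 1 gave 0.10. Both NT-KO libraries lay above both WT libraries for 17 members, which is 44.7% of them against 19.6% of all tested genes, and below both for 2 members (Cpt2 and Plin5), where the share over all genes is 19.2%. Members also moved together between the libraries of a group. In WT males 28 of 38 were higher in replicate 1 (50.8% of all genes), and in NT-KO males 13 of 38 (50.1%). Counts of members are therefore not counts of independent genes. A differentially expressed gene (DEG) was one with a log2 fold change above 1 or below -1 and an FDR (Benjamini-Hochberg) not over 0.05. By edgeR's quasi-likelihood test 0 members were DEGs in males, where 0.0152% of all tested genes were, and 10 had an unadjusted p under 0.05, 9 of them higher (23.7% of members, 6.03% of all genes) and 1 lower (2.63% of members, 5.50% of all genes). Abcd2, Acot3 and Acot4 were DEGs by edgeR's likelihood ratio test and by DESeq2, under which 1.56% and 1.66% of all genes were called. The 10 members with an unadjusted p under 0.05 became 6 without male WT replicate 1. Under the quasi-likelihood test 1 member became a DEG when male NT-KO replicate 1 (Acot3) or either female NT-KO library (Abcd2) was left out.

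Other genes moved with this comparison. All 4 erythroid markers were lower in NT-KO males, 2 of them with an unadjusted p under 0.05, and they summed to 452 to 955 CPM in WT males and 378 to 398 CPM in NT-KO males. All 4 B lymphocyte markers were higher (median log2 fold change 0.61, 3 without overlap), with sums of 1.28 to 1.76 CPM in WT and 1.87 to 3.18 CPM in NT-KO. Higher were also 7 of 8 Kupffer cell markers (median 0.27), 4 of 4 cholangiocyte markers (0.27) and 6 of 7 endothelial markers (0.29), among which Cdh5 was higher (unadjusted p = 0.0445) and Lyve1 lower (unadjusted p = 0.0152) by edgeR. Of the clock genes of the positive limb, the 2 tested (Arntl and Clock) were both lower, and their sum was 40.3 and 42.3 CPM in WT males and 20.2 and 28.4 CPM in NT-KO males. Of 9 clock output and negative limb genes, 7 were higher in NT-KO males (median log2 fold change 0.45), and Hlf (-0.12) and Per2 (-0.44) were lower without overlap. Dbp, a clock output gene with the largest log2 fold change of the 9 (0.96), read 30.8 and 33.3 CPM in WT males and 70.1 and 54.5 CPM in NT-KO males. Of 10 genes of lipid synthesis that are known to rise on feeding, 8 were higher in NT-KO males (median log2 fold change 0.80), of which Srebf1 had no overlap (0.78, unadjusted p = 0.0444 in edgeR). The NT-KO libraries lay on either side of WT in the sum of the 10, which was 7672 and 8003 CPM in WT males, 3446 CPM in male NT-KO replicate 1 and 23587 CPM in replicate 2. Of 6 gluconeogenic and fasting genes (Pck1, G6pc, Igfbp1, Lpin1, Ppargc1a and Tat) 4 were higher in NT-KO males and 2 lower (median log2 fold change 0.16). Only G6pc among them had no overlap (1.01, unadjusted p = 0.0253 in edgeR). Of 6 immediate early genes (Fos, Jun, Egr1, Atf3, Ier2 and Dusp1) 5 were lower in NT-KO males and 1 higher (median log2 fold change -0.44). The part of these cell types, of clock phase, of feeding and of immediate early genes in the values of the members was not tested.

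In females the members had no common direction. Of 38 members 16 were higher (50.3% of all genes) and 22 lower in female NT-KO vs WT, and the median log2 fold change was -0.01, against 0.00 over all genes. This median was 0.06 when female WT replicate 1 was left out, while leaving out female NT-KO replicate 1 gave 0.12. By role, the fasting-induced genes had a median of -0.43, with 3 of 4 lower and 2 of them without overlap. The B lymphocyte markers were also lower in NT-KO females, 4 of 4 without overlap (sums of 7.73 to 8.10 CPM in WT and 3.23 to 5.38 CPM in NT-KO). All 9 clock output and negative limb genes were lower (median -0.07), and Arntl and Clock were both higher without overlap. Higher were also 9 of 10 genes of lipid synthesis (median 0.38), 6 of 6 immediate early genes (0.87) and 4 of 4 erythroid markers (0.56). Of the 6 gluconeogenic and fasting genes 3 were higher and 3 lower (-0.05), with G6pc higher and Lpin1 lower without overlap. Of 7 endothelial markers 5 were lower (-0.07), as were 5 of 8 Kupffer cell markers (-0.02). The part of these genes in the values of the members was not tested. By edgeR's quasi-likelihood test 0 members were DEGs (0.00762% of all genes) and 0 had an unadjusted p under 0.05 (1.55% of all genes), and 0 were DEGs by the likelihood ratio test or DESeq2. The number with an unadjusted p under 0.05 was 2 without either male NT-KO library or female WT replicate 2, and 1 without either female NT-KO library. Only Cpt2 lay higher in both NT-KO libraries without overlap, against 12.2% of all genes, and Acaa1a, Bdh1, Fgf21 and Angptl4 lay lower, against 14.2% of all genes. Of these, Angptl4, an inhibitor of lipoprotein lipase, read 162 and 123 CPM in WT females and 81.3 and 113 CPM in NT-KO females, with a log2 fold change of -0.55 (SE 0.296, unadjusted p = 0.0984, FDR 1.00 in edgeR). Female NT-KO replicate 1 was the lower of its pair for 34 of 38 members, where 48.6% of all genes were higher in replicate 1.

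**Figure D2:**
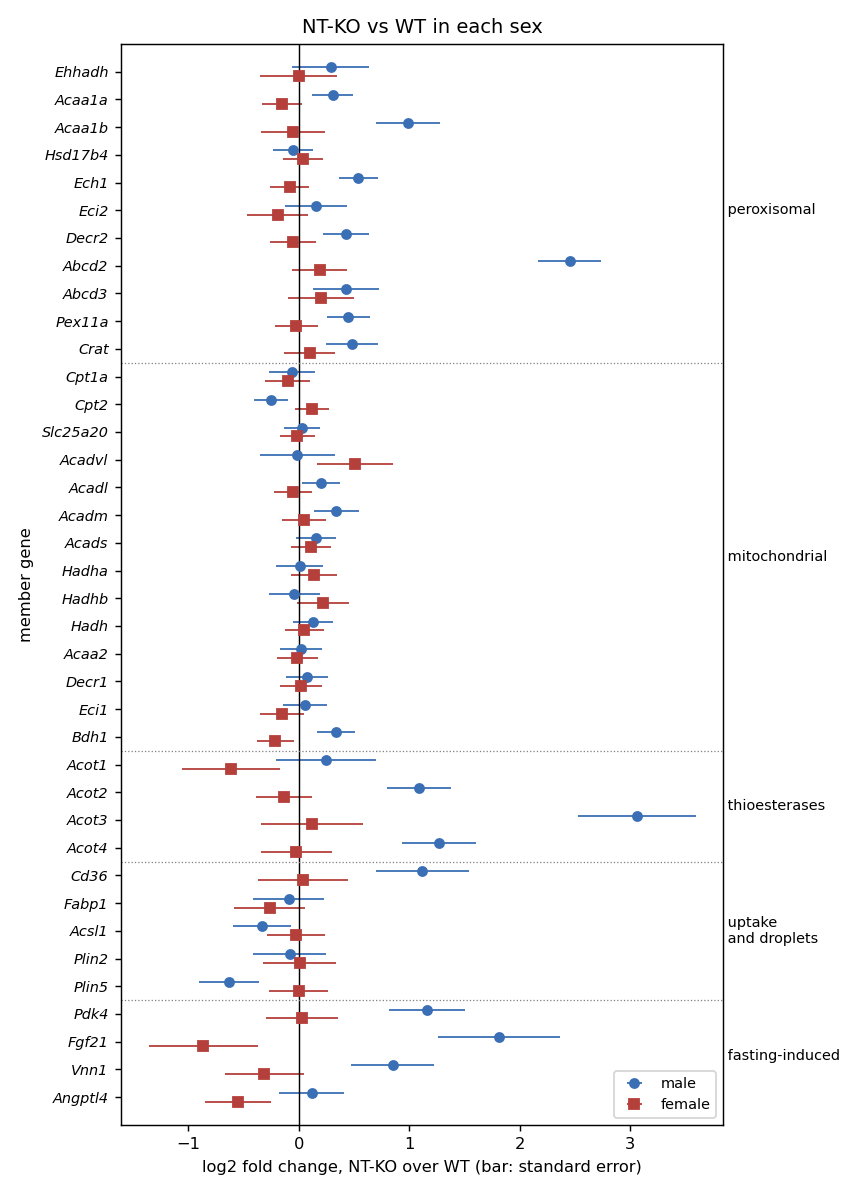
For each member, points give the log2 fold change of NT-KO over WT in males (circles) and in females (squares), with bars of 1 standard error from edgeR. The circles of Acot3 (3.06) and Abcd2 (2.45) stand farthest to the right, and most squares lie near 0.

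Whether the effect differed between the sexes was tested directly. The log2 fold change in females minus that in males was below 0 for 30 of 38 members (51.2% of all genes), with a median of -0.29 against -0.01 over all genes. By edgeR's quasi-likelihood test of this difference 0 members had an FDR of at most 0.05 (0.0152% of all genes), and 8 had an unadjusted p under 0.05, all of them below 0 (3.67% of all genes). These 8 were Acaa1b, Ech1, Abcd2, Acot2, Acot3, Acot4, Pdk4 and Fgf21. Abcd2 and Acot3 passed the FDR by the likelihood ratio test and by DESeq2, where 0.351% and 0.473% of all genes did. The number with an unadjusted p under 0.05 was 5 without male WT replicate 2, and leaving out female NT-KO replicate 1 gave 4. Over both sexes together, 0 members were DEGs of NT-KO vs WT (0.0152% of all genes) and 0 had no overlap between the 4 NT-KO and the 4 WT libraries (0.953% of all genes). Abcd2, Acot2, Acot3, Acot4 and Pdk4 had an unadjusted p under 0.05 there and were higher in NT-KO (3.00% of all genes). Their number was 2 without male WT replicate 2 or female NT-KO replicate 2. It was 3 on leaving out male NT-KO replicate 2 or female WT replicate 1, and 8 without female WT replicate 2. By the likelihood ratio test and DESeq2, Abcd2 and Acot3 were DEGs over both sexes.

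Members of most roles were higher in females than in males. In female vs male livers over both genotypes 33 members were higher (48.9% of all genes) and 5 lower, with a median log2 fold change of 0.50 against -0.01 over all genes. By role, the median was 2.43 for the thioesterases, 0.97 for the fasting-induced genes, 0.59 for the peroxisomal genes, 0.27 for the mitochondrial genes and 0.20 for the genes of uptake and droplets. By edgeR's quasi-likelihood test 15 members had an FDR of at most 0.05 and all 15 were higher in females, against 4.12% of all genes called higher and 3.72% called lower. Of these, 8 were DEGs (Abcd2, Acot1, Acot2, Acot3, Acot4, Cd36, Pdk4 and Vnn1), where 4.19% of all genes were. All 4 female libraries lay above all 4 male libraries for 17 members (8.50% of all genes) and below them for Acsl1 (7.60% of all genes). The 15 became 17 and 12 when male NT-KO replicate 1 or 2, in that order, was left out, and 7 to 9 without any of the other 6 libraries, and the number was 11 in the WT libraries alone and 5 in the NT-KO libraries alone. Under every other fit run here Abcd2, Acot2, Acot3 and Vnn1 kept an FDR of at most 0.05, with a highest edgeR FDR of 0.00527, 0.0194, 0.0141 and 0.0190, and each of the other 11 lost it in at least 1 fit. Cell type markers also moved with sex: 8 of 8 Kupffer cell markers were higher in females (208 to 352 CPM in sum in males and 377 to 446 CPM in females), as were 7 of 7 endothelial markers (147 to 221 CPM and 245 to 268 CPM), and 4 of 4 B lymphocyte markers (1.28 to 3.18 CPM and 3.23 to 8.10 CPM, 3 of them with an FDR of at most 0.05 in edgeR), and 4 of 4 erythroid markers were lower (378 to 955 CPM and 166 to 319 CPM). Other lists were mixed. Of 6 hepatocyte markers 2 were higher and 4 lower in females (median log2 fold change -0.29), with Serpina1a lower without overlap. Of 4 cholangiocyte markers 3 were higher and 1 lower (0.64), and of 5 stellate cell markers 3 were higher and 2 lower (0.01). The part of these markers in the sex differences of the members was not tested.

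**Figure D3:**
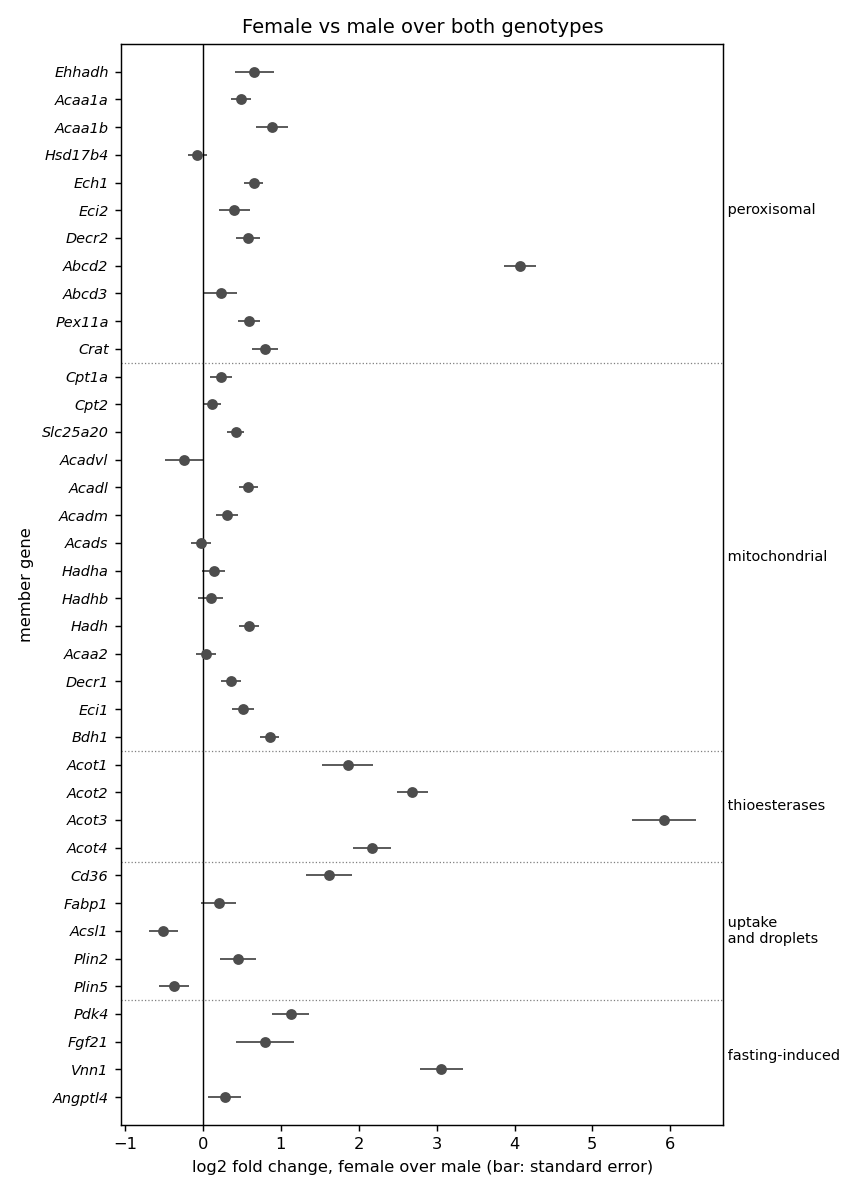
Points give the log2 fold change of female over male for each member, over both genotypes, with bars of 1 standard error from edgeR. Acot3 (5.92), Abcd2 (4.07) and Vnn1 (3.06) stand apart, and Acsl1 (-0.51) is the lowest.

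The acyl-CoA thioesterases Acot1 to Acot4 hydrolyse acyl-CoA to free fatty acid and CoA, Acot1 in the cytosol, Acot2 in mitochondria, and Acot3 and Acot4 in peroxisomes. They lie side by side on the plus strand of chromosome 12 of GRCm38, within 72.5 kb, in the order Acot2 (83987861 to 83993873), Acot1 (84009490 to 84018371), Acot4 (84038379 to 84048601) and Acot3 (84052144 to 84060402). Because the 4 neighbours were all higher in females, their start regions are shown here, from 250 bases before to 50 bases after the RefSeq start site (GRCm38.p6, plus strand). Capitals mark the hexamer AGGTCA, the element that receptors of this class bind as a direct repeat, here read on the opposite strand as TGACCT. The windows are chr12:83987611-83987910 for Acot2, chr12:84009252-84009551 for Acot1, chr12:84038129-84038428 for Acot4 and chr12:84051894-84052193 for Acot3, for which RefSeq also gives a start 7 bases further on.
Acot2: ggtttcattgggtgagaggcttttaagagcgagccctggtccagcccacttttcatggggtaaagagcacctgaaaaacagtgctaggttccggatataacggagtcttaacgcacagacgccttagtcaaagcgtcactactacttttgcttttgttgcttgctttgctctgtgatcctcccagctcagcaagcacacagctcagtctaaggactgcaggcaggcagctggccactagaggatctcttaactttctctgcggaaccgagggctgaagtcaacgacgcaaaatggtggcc
Acot1: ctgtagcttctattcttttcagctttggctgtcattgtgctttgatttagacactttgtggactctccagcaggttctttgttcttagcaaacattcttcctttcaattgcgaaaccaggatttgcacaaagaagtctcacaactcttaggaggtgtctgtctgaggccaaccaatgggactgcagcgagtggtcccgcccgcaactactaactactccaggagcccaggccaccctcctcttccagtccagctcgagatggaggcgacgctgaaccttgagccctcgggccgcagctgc
Acot4: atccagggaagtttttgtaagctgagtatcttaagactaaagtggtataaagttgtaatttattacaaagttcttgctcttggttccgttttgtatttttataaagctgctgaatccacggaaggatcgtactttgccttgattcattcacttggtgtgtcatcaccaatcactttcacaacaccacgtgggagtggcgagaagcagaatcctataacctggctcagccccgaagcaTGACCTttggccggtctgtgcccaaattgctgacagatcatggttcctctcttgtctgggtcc
Acot3: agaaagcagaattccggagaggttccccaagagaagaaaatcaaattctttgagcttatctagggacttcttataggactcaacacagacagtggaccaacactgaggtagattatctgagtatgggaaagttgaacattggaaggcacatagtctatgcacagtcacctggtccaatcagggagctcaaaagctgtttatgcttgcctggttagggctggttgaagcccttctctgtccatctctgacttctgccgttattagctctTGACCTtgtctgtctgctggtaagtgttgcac
Acot3 held the hexamer 19 bases after and Acot4 13 bases before the start site, and the windows of Acot1 and Acot2 held none. Among all 32851 RefSeq windows of this length 16.3% contained it on either strand, and 9 of the 31 member genes with a window did (Acadm, Acadvl, Acot3, Acot4, Cd36, Cpt1a, Fabp1, Plin2 and Plin5).

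Acot3 had the widest range of all members. It read 1.51 and 1.2 CPM in WT males, 5.31 and 17.4 CPM in NT-KO males, 208 and 248 CPM in WT females, and 196 and 302 CPM in NT-KO females. Male NT-KO lay above male WT and far below all 4 female libraries, and the female genotypes overlapped. Its level in females was 168-fold that in males among WT and 21.9-fold among NT-KO, with a log2 fold change of 5.92 over both (SE 0.411, FDR 1.17e-04 in edgeR). In males the log2 fold change of NT-KO over WT was 3.06 (SE 0.534, unadjusted p = 4.05e-04, FDR 0.160 in edgeR), and 1.96 without male NT-KO replicate 2. The female effect was lower than the male effect by a log2 fold change of -2.94 (SE 0.699, unadjusted p = 0.00284, FDR 0.573 in edgeR), and by -1.83 without male NT-KO replicate 2.

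Acot2 and Acot4 showed the same order of groups at smaller distances, and Acot1 did not. Acot2 read 0.841 and 0.945 CPM in WT males, 1.52 and 2.27 CPM in NT-KO males, 10 and 7.59 CPM in WT females, and 7.21 and 8.93 CPM in NT-KO females. Acot4 read 7.78 and 5.49 CPM in WT males, 11.8 and 20.4 CPM in NT-KO males, 44.4 and 49.5 CPM in WT females, and 34.3 and 58.3 CPM in NT-KO females. For both genes the 2 male NT-KO libraries stood between male WT and the females without overlap. In males Acot2 had a log2 fold change of 1.09 (SE 0.288, unadjusted p = 0.00516, FDR 0.246 in edgeR) and Acot4 of 1.27 (SE 0.337, unadjusted p = 0.00517, FDR 0.246), and that of Acot4 was 0.82 without male NT-KO replicate 2. Between the sexes the log2 fold change was 2.69 for Acot2 (SE 0.199, FDR 1.63e-04 in edgeR) and 2.17 for Acot4 (SE 0.241, FDR 0.00142). The difference between the male and the female effect of the deletion was -1.21 for Acot2 (SE 0.384, unadjusted p = 0.0129) and -1.30 for Acot4 (SE 0.466, unadjusted p = 0.0234), the latter -0.84 when male NT-KO replicate 2 was left out. Acot1 read 9.0 and 5.75 CPM in WT males and 7.93 and 9.64 CPM in NT-KO males, so that the male genotypes overlapped. In females it read 54.3 and 18.1 CPM in WT and 22.5 and 25.1 CPM in NT-KO, all above the males, with a log2 fold change between the sexes of 1.86 (SE 0.325, FDR 0.0128 in edgeR). Reads of these genes are partly exchangeable: 13.4% (Acot4) to 27.7% (Acot2) of their 50-base stretches occur in another gene, for Acot1 and Acot2 mostly in each other, and how the authors counted such reads is not given in the sources used here.

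**Figure D4:**
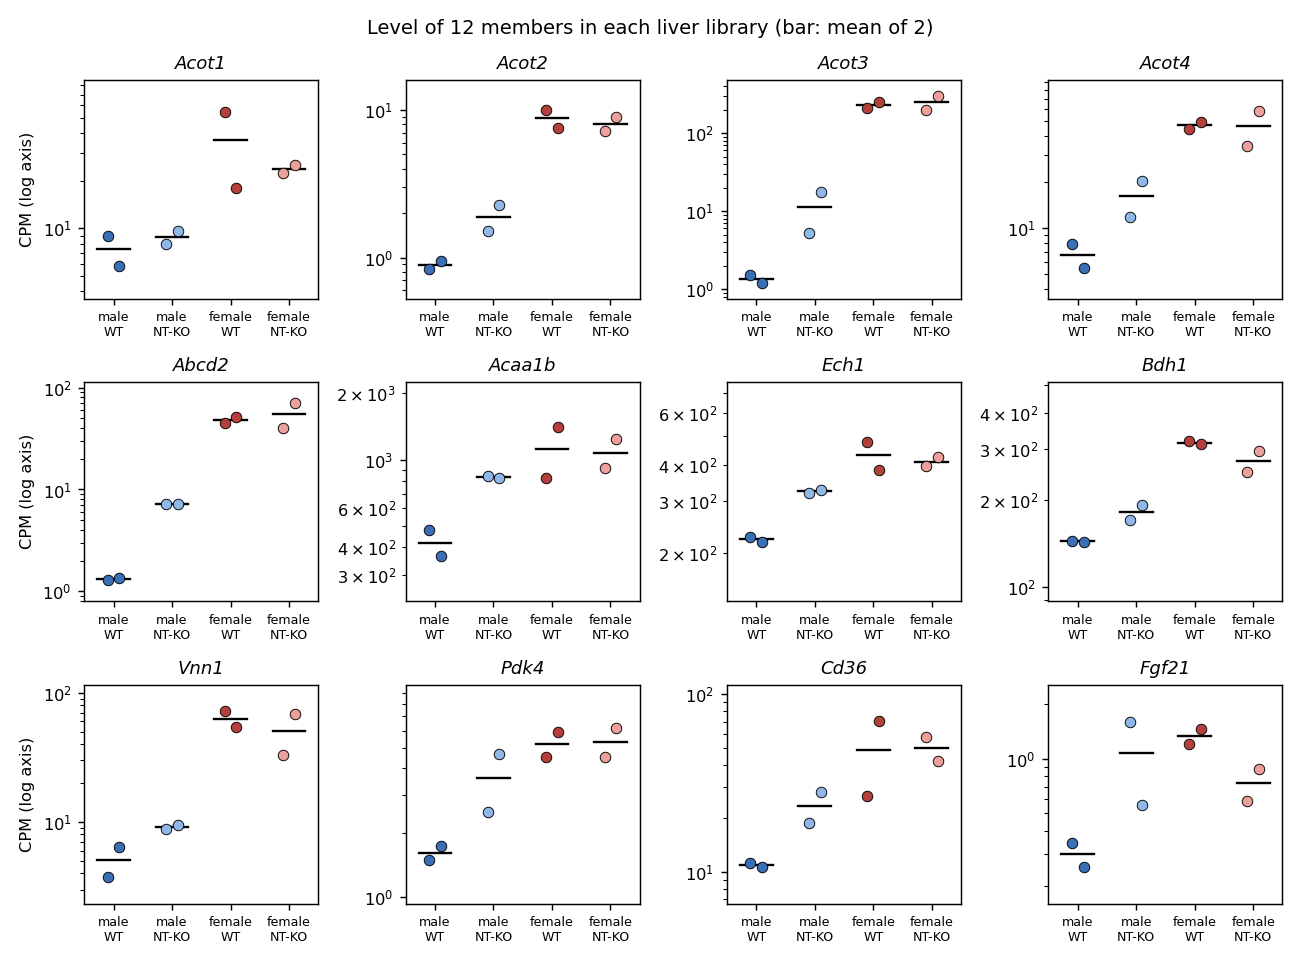
Points give CPM in each library on a log axis, with its own range in each panel, and bars the mean of the 2 libraries of a group. In the panels of Acot2, Acot3, Acot4, Abcd2, Ech1, Bdh1 and Vnn1 the male NT-KO points lie between those of male WT and of the females.

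Among the peroxisomal genes, Abcd2 varied most. It encodes a transporter of very long chain acyl-CoA in the peroxisomal membrane and lies on the minus strand of chromosome 15 (91145871 to 91191799). It read 1.28 and 1.35 CPM in WT males, 7.18 and 7.18 CPM in NT-KO males, 45.1 and 51.9 CPM in WT females, and 39.9 and 70.6 CPM in NT-KO females. The 3 levels do not overlap, and the replicates of either male group were close to each other. In males the log2 fold change was 2.45 (SE 0.285, unadjusted p = 2.28e-05, FDR 0.0598 in edgeR), the smallest p of all members and rank 5 among 13117 genes. With 1 library left out in turn it stayed between 2.40 and 2.49. In females the genotypes overlapped, and the difference between the effects was -2.26 (SE 0.375, unadjusted p = 2.88e-04, FDR 0.573 in edgeR). Females had 36.8-fold the level of males among WT and 7.70-fold among NT-KO, with a log2 fold change of 4.07 over both genotypes (SE 0.204, FDR 2.93e-05 in edgeR). Of its 50-base stretches only 0.611% occur in another gene. Abcd3, another transporter of the same family, read 427 to 844 CPM in males and 576 to 889 CPM in females, with overlap between the genotypes in both sexes.

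Enzymes of the peroxisomal beta-oxidation cycle had smaller fold changes. Acaa1b, a thiolase of the last step (chromosome 9, 119148023 to 119157093), read 476 and 363 CPM in WT males and 845 and 826 CPM in NT-KO males, without overlap. In females it read 827 and 1404 CPM in WT and 914 and 1237 CPM in NT-KO, so that the male NT-KO level reached the lower end of the females. The male log2 fold change was 0.99 (SE 0.292, unadjusted p = 0.00914, FDR 0.284 in edgeR) and that between the sexes 0.89 (SE 0.206, FDR 0.0387), where the latter FDR ranged from 1.52e-05 to 0.900 over the other fits. The close copy Acaa1a lies 183 kb away and shares 30.5% of the 50-base stretches of Acaa1b, so the split of reads between them is uncertain. Acaa1a read 240 and 219 CPM in WT males, 316 and 253 CPM in NT-KO males, 368 and 390 CPM in WT females, and 320 and 363 CPM in NT-KO females. NT-KO was higher than WT in males and lower in females, without overlap in either. Its log2 fold change was 0.31 in males (SE 0.185, unadjusted p = 0.134) and -0.15 in females (SE 0.185, unadjusted p = 0.441), and 0.49 between the sexes (SE 0.131, unadjusted p = 0.00528, FDR 0.0576 in edgeR).

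Ech1, an isomerase for fatty acids with double bonds, read 226 and 218 CPM in WT males, 320 and 327 CPM in NT-KO males, 478 and 384 CPM in WT females, and 394 and 423 CPM in NT-KO females. Its replicates were tight in males, and male NT-KO lay between male WT and the females. The log2 fold change was 0.54 in males (SE 0.179, unadjusted p = 0.0159, FDR 0.328 in edgeR), 0.65 between the sexes (SE 0.127, FDR 0.0209), and -0.62 for the difference of the effects (SE 0.253, unadjusted p = 0.0389). Decr2, the peroxisomal dienoyl-CoA reductase, followed the same order with 134 and 130 CPM in WT males, 181 and 174 CPM in NT-KO males, and 183 to 266 CPM in females. Pex11a, which takes part in peroxisome division, read 70.3 and 65 CPM in WT males, 98.7 and 86.3 CPM in NT-KO males, and 98.7 to 138 CPM in females. Crat, carnitine acetyltransferase of peroxisomes and mitochondria, read 18.3 and 18.4 CPM in WT males, 19.1 and 32.1 CPM in NT-KO males, and 33.6 to 40.1 CPM in females. These 3 genes had male log2 fold changes of 0.43 (Decr2), 0.45 (Pex11a) and 0.48 (Crat), with unadjusted p-values of 0.0754, 0.0507 and 0.0725. Between the sexes the log2 fold changes were 0.58 (FDR 0.0525 in edgeR), 0.59 (FDR 0.0397) and 0.80 (FDR 0.0264).

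The remaining peroxisomal genes overlapped between the male genotypes. Ehhadh, the bifunctional enzyme that PPAR alpha agonists raise strongly in rodents, read 219 and 139 CPM in WT males, 162 and 275 CPM in NT-KO males, and 250 to 373 CPM in females, with a log2 fold change between the sexes of 0.66 (SE 0.249, unadjusted p = 0.0293, FDR 0.140 in edgeR). Hsd17b4, the other bifunctional enzyme, stayed within 325 to 391 CPM in all libraries. Eci2, an isomerase, read 142 to 223 CPM in males and 174 to 279 CPM in females.

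None of the 14 mitochondrial genes had an unadjusted p under 0.05 in male or female NT-KO vs WT. Bdh1, which makes beta-hydroxybutyrate in the last step of ketone body formation (chromosome 16, 31422280 to 31458901), had the largest log2 fold change between the sexes among them. It read 145 and 143 CPM in WT males, 171 and 193 CPM in NT-KO males, 320 and 313 CPM in WT females, and 251 and 296 CPM in NT-KO females. In both sexes the genotypes did not overlap, with NT-KO higher in males and lower in females. The log2 fold change was 0.34 in males (SE 0.170, unadjusted p = 0.0807), -0.21 in females (SE 0.170, unadjusted p = 0.247), and -0.55 for the difference (SE 0.240, unadjusted p = 0.0505). Between the sexes it was 0.86 (SE 0.121, FDR 0.00468 in edgeR).

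Acadl, the long-chain acyl-CoA dehydrogenase, read 142 to 171 CPM in males and 207 to 256 CPM in females. Hadh, the short-chain hydroxyacyl-CoA dehydrogenase, read 245 to 313 CPM in males and 403 to 435 CPM in females. Both were higher in females, with log2 fold changes of 0.58 (SE 0.121, FDR 0.0276 in edgeR) and 0.59 (SE 0.126, FDR 0.0284). Higher in all 4 female than in all 4 male libraries, with an FDR above 0.05, were Slc25a20, the carnitine and acylcarnitine carrier (log2 fold change 0.42, FDR 0.0588 in edgeR), Eci1 (0.51, FDR 0.0652) and Decr1 (0.36, FDR 0.137), an isomerase and a reductase for unsaturated chains.

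Other mitochondrial genes overlapped between the sexes. Cpt1a, which commits long chains to the mitochondrion, read 289 to 321 CPM in males and 294 to 408 CPM in females. Cpt2, its partner on the inner membrane, read 152 and 137 CPM in WT males, 117 and 126 CPM in NT-KO males, 140 and 137 CPM in WT females, and 146 and 153 CPM in NT-KO females. It was lower in NT-KO males and higher in NT-KO females without overlap, with a log2 fold change of -0.25 in males (SE 0.153, unadjusted p = 0.144) and 0.12 in females (SE 0.152, unadjusted p = 0.464). The acyl-CoA dehydrogenases Acadvl (80.0 to 179 CPM), Acadm (200 to 346 CPM) and Acads (119 to 152 CPM) and the trifunctional protein subunits Hadha (252 to 362 CPM) and Hadhb (132 to 217 CPM) overlapped between the sexes. Acadm, the medium-chain enzyme, was higher in NT-KO males than in WT males without overlap, by a log2 fold change of 0.34 (SE 0.202, unadjusted p = 0.134), as was Acadl by 0.20 (SE 0.171, unadjusted p = 0.276). Acadvl shares 26.9% of its 50-base stretches with its neighbour Dvl2, and Hadhb shares 18.1% with Gm13910.

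Of the genes of uptake, binding and droplets, Cd36 was the only one with an FDR of at most 0.05 between the sexes. It encodes a fatty acid transporter of the plasma membrane and read 11.2 and 10.6 CPM in WT males, 18.9 and 28.3 CPM in NT-KO males, 26.6 and 70.7 CPM in WT females, and 57.5 and 42.3 CPM in NT-KO females. Male WT lay below all other libraries, and male NT-KO overlapped female WT. The log2 fold change was 1.12 in males (SE 0.419, unadjusted p = 0.0279, FDR 0.376 in edgeR) and 1.62 between the sexes (SE 0.298, FDR 0.0161). Cd36 is also expressed in endothelial cells and macrophages, whose markers were higher in females as given above.

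Plin5, which ties lipid droplets to mitochondria, was the only member with an unadjusted p under 0.05 that was lower in NT-KO males. It read 65.5 and 50 CPM in WT males, 40 and 34.7 CPM in NT-KO males, and 26 to 46.2 CPM in females, with a male log2 fold change of -0.63 (SE 0.270, unadjusted p = 0.0474, FDR 0.431 in edgeR). Acsl1, the main liver enzyme that activates long-chain fatty acids, was the only member lower in all female than in all male libraries, with 1166 and 693 CPM in WT males, 813 and 664 CPM in NT-KO males, and 536 to 614 CPM in females. Between the sexes it had a log2 fold change of -0.51 (SE 0.187, unadjusted p = 0.0242, FDR 0.127 in edgeR), and -0.30 without male WT replicate 1. Plin2, the coat protein of hepatocyte droplets, read 193 to 326 CPM in males and 280 to 450 CPM in females.

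Fabp1 read 4119 to 8168 CPM and overlapped in every comparison. Its start region is shown because it was the only member window with the looser direct repeat of AGGNCA, 2 copies in the same direction with 1 base of any kind between them, a pattern that 0.381% of all windows held on either strand. Capitals mark that match, on the opposite strand from 67 bases before the start site, and a further hexamer 9 bases before it (chr6:71199629-71199928, GRCm38.p6, plus strand).
Fabp1: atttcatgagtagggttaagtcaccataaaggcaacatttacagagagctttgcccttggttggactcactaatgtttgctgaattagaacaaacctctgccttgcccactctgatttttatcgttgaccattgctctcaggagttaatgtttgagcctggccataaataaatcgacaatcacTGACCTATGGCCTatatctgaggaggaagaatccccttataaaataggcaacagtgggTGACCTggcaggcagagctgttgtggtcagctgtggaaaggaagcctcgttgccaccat
The strict repeat, with both copies reading AGGTCA, was in none of the 36 member windows and in 0.0396% of all windows. The motif TTCNNNGAA, which STAT proteins downstream of the growth hormone receptor bind, was in the windows of Cpt2, Hadha and Hadhb and in 8.3% of all windows. The windows of the neighbours Hadha and Hadhb overlap, and their match is the same site read on opposite strands.

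Of the fasting-induced genes, Vnn1, Pdk4 and Fgf21 were lowest in WT males. Vnn1, a pantetheinase (chromosome 10, 23894688 to 23905343), read 3.73 and 6.41 CPM in WT males, 8.75 and 9.47 CPM in NT-KO males, 72.0 and 54 CPM in WT females, and 33 and 68.5 CPM in NT-KO females. Male NT-KO was above male WT and below all females, with a male log2 fold change of 0.85 (SE 0.376, unadjusted p = 0.0524, FDR 0.437 in edgeR). Between the sexes it was 3.06 (SE 0.277, FDR 4.72e-04 in edgeR), 12.4-fold among WT and 5.57-fold among NT-KO.

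Pdk4, the kinase that shuts down pyruvate dehydrogenase and so spares glucose, read 1.49 and 1.74 CPM in WT males, 2.51 and 4.68 CPM in NT-KO males, 4.52 and 5.92 CPM in WT females, and 4.51 and 6.16 CPM in NT-KO females. Male WT was the lowest group, and male NT-KO overlapped the females. The log2 fold change was 1.16 in males (SE 0.343, unadjusted p = 0.00936, FDR 0.285 in edgeR), 0.64 without male NT-KO replicate 2, and 1.13 between the sexes (SE 0.237, FDR 0.0276).

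Fgf21, a hormone that the liver releases in fasting, was near the lower limit of the filter. It reached 1 CPM only in male NT-KO replicate 1 and both female WT libraries. It was therefore tested only because of the groups in which it was high. Its counts were 18 and 10 in WT males, 72 and 27 in NT-KO males, 61 and 92 in WT females, and 31 and 53 in NT-KO females, or 0.344 and 0.256 CPM, 1.59 and 0.557 CPM, 1.21 and 1.46 CPM, and 0.589 and 0.878 CPM. It was higher in both male NT-KO libraries and lower in both female NT-KO libraries, without overlap in either sex. The log2 fold change was 1.81 in males (SE 0.553, unadjusted p = 0.0109, FDR 0.293 in edgeR) and -0.86 in females (SE 0.496, unadjusted p = 0.120, FDR 1.00), and the difference was -2.67 (SE 0.743, unadjusted p = 0.00678, FDR 0.573). The male value rested largely on male NT-KO replicate 1, without which it was 0.87.

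A shared order of the groups runs through several of these genes. Both male NT-KO libraries lay above both male WT libraries and below all 4 female libraries for 12 of 38 members (31.6%), an order found at 403 of 13117 genes (3.07%). The 12 were 5 more peroxisomal genes beside Abcd2 (Acaa1a, Ech1, Decr2, Pex11a and Crat), the thioesterases Acot2, Acot3 and Acot4, the mitochondrial genes Acadl and Bdh1, and Vnn1. Some gaps between the highest male NT-KO and the lowest female library were narrow. They were 181 and 183 CPM for Decr2, 316 and 320 for Acaa1a, and 32.1 and 33.6 for Crat. For Pex11a both round to 98.7 CPM. The order was counted with TMM scaling only. The opposite order, with male NT-KO between a higher male WT and lower females, was found at 0 members and at 2.71% of all genes. The first order needs all 4 female libraries above all 4 male ones, which held for 17 members and 8.50% of all genes. The opposite order needs all 4 below, which held for Acsl1 alone among the members and for 7.60% of all genes. Both shares therefore rest in part on the sex difference. The male genotype and the sex comparison share the male libraries, so the 2 differences are not independent. The summed B lymphocyte markers had the same order, at 1.28 to 1.76 CPM in WT males, 1.87 to 3.18 CPM in NT-KO males and 3.23 to 8.10 CPM in females, and their part in the order of the members was not tested. Within WT, 13 members were higher in females with an FDR of at most 0.05 (3.32% of all genes), and within NT-KO 4 were (Abcd2, Acot2, Acot3 and Vnn1, 0.877% of all genes), by edgeR on all 8 libraries.

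**Figure D5:**
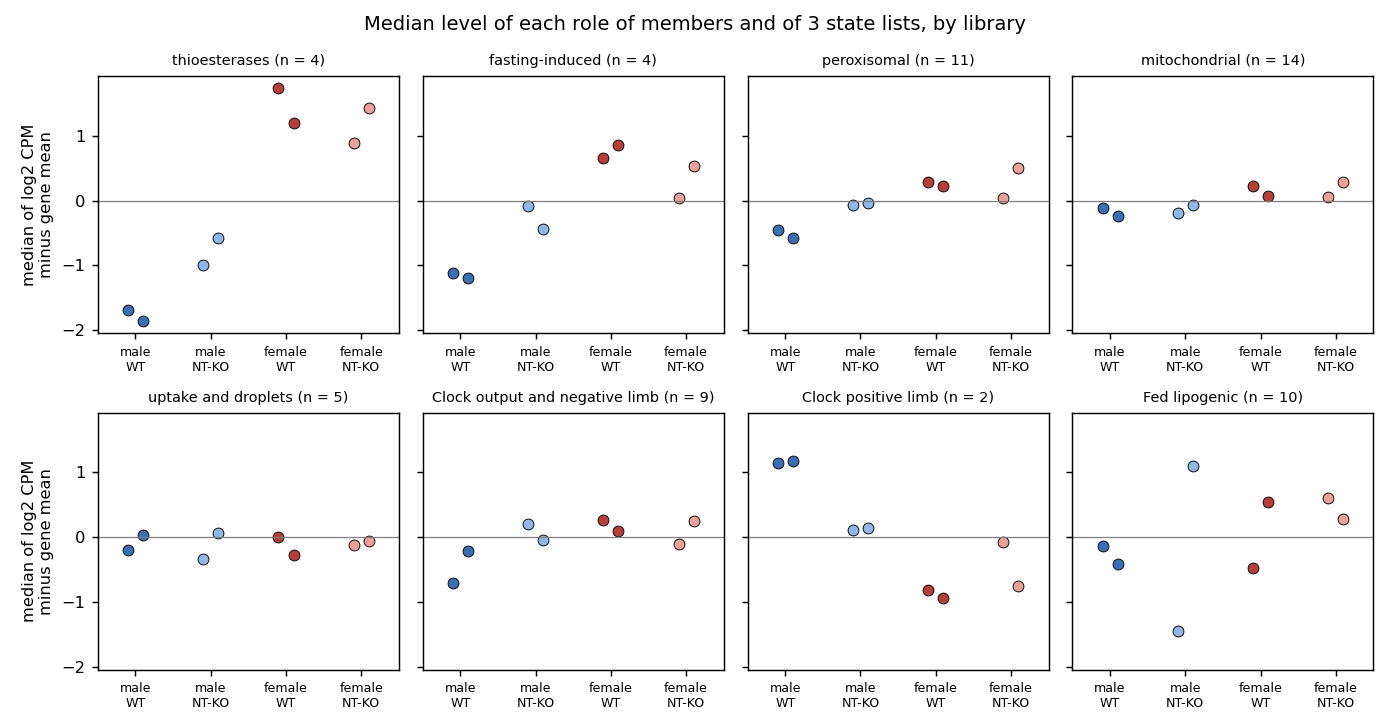
Points give, for each library, the median over a list of genes of log2 CPM minus the mean of the gene, for the 5 roles and for 3 lists of clock and feeding genes. For thioesterases the medians run from -1.69 and -1.86 in WT males to -0.99 and -0.57 in NT-KO males and 0.89 to 1.74 in females, while those of Arntl and Clock (the positive limb) go from 1.15 and 1.18 in WT males to 0.11 and 0.14 in NT-KO males and -0.93 to -0.08 in females.

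The clock gene Arntl was highest in WT males. It read 4.51 and 4.45 CPM in WT males, 2.07 and 1.44 CPM in NT-KO males, 0.673 and 0.589 CPM in WT females, and 1.65 and 0.729 CPM in NT-KO females. Male NT-KO replicate 1 lay below male WT and above all 4 female libraries, and replicate 2 above 3 of them, and the part of the clock in the order of the members was not tested. Ppara, the gene of the receptor itself, did not follow the order, with 35.2 and 46.3 CPM in WT males, 42.6 and 58.3 CPM in NT-KO males, 42.3 and 53.3 CPM in WT females, and 23.4 and 57.4 CPM in NT-KO females. Its values overlapped in every comparison.

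Other genes of the pathway were read from a list of 70, of which 66 were tested. In male NT-KO vs WT 42 were higher and 24 lower (median log2 fold change 0.10), 7 and 6 of them with an unadjusted p under 0.05 (6.03% and 5.50% of all genes), and in females 2 and 1 (1.55% of all genes in either direction). The smallest p-values in males belonged to the microsomal fatty acid hydroxylases Cyp4a10 and Cyp4a14, to the monocarboxylate transporter Slc16a1, to the peroxisomal oxidase Acox3 and to the droplet protein Cidec. Cyp4a14 read 0.535 and 0.843 CPM in WT males, 6.04 and 1.59 CPM in NT-KO males, 350 and 353 CPM in WT females, and 126 and 207 CPM in NT-KO females. It was higher in NT-KO males and lower in NT-KO females without overlap, with log2 fold changes of 2.48 (SE 0.609, unadjusted p = 0.00339, FDR 0.229 in edgeR) and -1.08 (SE 0.503, unadjusted p = 0.0638), and the difference was -3.56 (SE 0.791, unadjusted p = 0.00189, FDR 0.573). Cyp4a10 had a male log2 fold change of 1.97 (SE 0.453, unadjusted p = 0.00233), against -0.81 for Slc16a1, -0.51 for Acox3 and -0.70 for Cidec. Between the sexes 48 of the 66 were higher in females (median 0.27), and 11 higher and 4 lower had an FDR of at most 0.05 in edgeR (4.12% and 3.72% of all genes). Cyp4a14 (log2 fold change 7.23), Cyp4a10 (5.57) and the peroxisomal isomerase Eci3 (6.85) were higher in females, and Cyp4a12a (-9.10) and Cyp4a12b (-9.27) lower, with FDRs of 3.95e-06 to 7.50e-04.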

How the data were processed

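Per the labels and the paper, RNA of whole liver was made into libraries with the Illumina TruSeq kit. The authors used cutadapt to trim the reads, STAR 2.6.1a to align them and featureCounts with Ensembl gene models (GRCm38) to assign them to genes. Deposited are the raw counts, neither normalized nor filtered. The strand setting and the handling of reads that match several genes are not given in the sources used here. Of 49671 gene IDs, 49412 matched the GRCm38 annotation used here for names and positions, and 259 did not. All 8 columns could be matched to samples by label.

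The software was R 4.3.3 with edgeR 4.0.16 and limma 3.58.1, and DESeq2 1.42.0 for an alternative. A gene was tested if 2 or more libraries had at least 1 CPM of it, relative to all counts and before scaling. It also had to be no rRNA, miRNA or mitochondrial genome gene, and 13117 genes with 91.8% to 92.9% of the counts were tested. Library sizes were scaled by TMM (factors 0.921 to 1.05), and the CPM values given refer to the sum over tested genes. A model with 1 mean for each group was fitted to all libraries with no block for replicates (common biological coefficient of variation 0.217) and tested with edgeR's quasi-likelihood F-test, two-sided, with Benjamini-Hochberg adjustment over all tested genes. The study's methods name edgeR's glmFit, whose likelihood ratio test was run as an alternative. The SE is the size of the log2 fold change divided by the square root of F. On simulated counts with 200 genes changed by a log2 of 2 in NT-KO males, the share recovered was 91.0% by the quasi-likelihood test, 96.5% by the likelihood ratio test and 96.0% by DESeq2. In that order they called 193, 226 and 222 genes, so the last 2 called more genes than were changed. Each gene was simulated at its mean over all 8 libraries. The shares therefore do not give the power for members with low counts in males, such as Acot3 and Abcd2. Start regions come from RefSeq, where 31 of 38 members matched, and Abcd2, Hsd17b4, Acaa2, Crat, Vnn1, Angptl4 and Decr1 did not.

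The members, the other lists and the tests were chosen with earlier results of these data known. A fold change with its test is given for members with an unadjusted p of at most 0.05 or without overlap between the groups compared, and of other pathway genes at most 5 are named in a comparison, those with the smallest p. Clock, feeding, immediate early and marker genes are given only beside results. Alternatives were other tests, scalings and filters, a replicate block, libraries of 1 sex or genotype alone, other thresholds and each library left out in turn.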

Additional observations from a re-analysis of the deposited data

Results flagged for a closer look

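At 4 members the NT-KO libraries of the 2 sexes lay on opposite sides of their WT libraries without overlap, and the difference of the effects was tested with edgeR's quasi-likelihood test. In males alone, 19.6% of all genes were higher and 19.2% lower in NT-KO without overlap. In females these shares were 12.2% and 14.2%. The share of all genes on opposite sides in the 2 sexes was not counted. For Fgf21 the female log2 fold change minus the male was -2.67 (unadjusted p = 0.00678, FDR 0.573), and it was -1.74 without male NT-KO replicate 1. For Bdh1 the difference was -0.55 (unadjusted p = 0.0505, FDR 0.688) and for Acaa1a -0.46 (unadjusted p = 0.118, FDR 0.727), all of them higher in male NT-KO and lower in female NT-KO. Cpt2 went the other way, with a difference of 0.36 (unadjusted p = 0.129, FDR 0.737). None of the 4 passed the adjustment. Fgf21 passed the filter on low counts only through male NT-KO replicate 1 and both female WT libraries, where it was highest. Its opposite directions in the 2 sexes therefore lend no separate support.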

How the results depend on the processing

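No member with an unadjusted p of at most 0.05 in a comparison changed the direction of its log2 fold change there under any alternative run. In male NT-KO vs WT the 0 DEGs became 3 with the likelihood ratio test, 3 with DESeq2, 1 with library size only, 7 without a filter, 1 with filterByExpr and 0 to 1 with 1 library left out, and the 10 members with an unadjusted p under 0.05 became 6 to 12 with 1 library left out. In females the 0 with such a p became 4 without a filter, 2 in the 4 female libraries alone and 0 to 2 with 1 library left out. Over both sexes the 0 DEGs became 2 with the likelihood ratio test, 2 with DESeq2 and 2 without a filter, and the 5 with an unadjusted p under 0.05 became 8 without a filter and 2 to 8 with 1 library left out. For the difference between the sexes in the NT-KO effect, the 0 past the FDR became 2 with the likelihood ratio test, 2 with DESeq2, 6 without a filter and 0 to 1 with 1 library left out, and the 8 with an unadjusted p under 0.05 became 4 to 11. Between the sexes the 8 DEGs became 5 in the NT-KO libraries alone, 5 at an FDR of at most 0.01, 15 without a minimum fold change and 6 to 9 with 1 library left out. There the 15 past the FDR became 5 in the NT-KO libraries alone and 7 to 17 with 1 library left out, and the 22 with an unadjusted p under 0.05 became 9 in the NT-KO libraries alone. In males 1.56% of all genes were DEGs with the likelihood ratio test, 1.66% with DESeq2 and 2.24% without a filter. With library size only they were 0.0305% and with filterByExpr 0.0339%. Without a filter 0.690% were DEGs over both sexes and 1.86% passed the FDR for the difference. In females 3.44% had an unadjusted p under 0.05 without a filter and 2.51% in the female libraries alone. Between the sexes 1.61% were DEGs in the NT-KO libraries alone. The filter, tests and thresholds act on which genes are tested or called. For the other settings the cause was not tested. Replicate numbers did not pair the samples, since deviations of same-numbered libraries correlated at -0.18 to 0.21 across genes. With a replicate block there were 0 DEGs of the genotype in males, females or both, 8 DEGs between the sexes, 14 members past the FDR there, and 18 with the numbers of male WT crossed, a setting chosen after seeing the data. With 2 libraries a group, the calls rest on the spread that edgeR shares across genes. Unadjusted p counts and the FDR count between the sexes were added as results after seeing the data. Acot2, Abcd2, Acot3, Pdk4 and Fgf21 had 10 to 79 counts in male WT libraries, which limits their fold changes.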
